A study of Mus musculus with 14 samples.

Results

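After 3 weeks of the activated YAP variant YAP5SA, a mouse small cell lung cancer line was set against lines of the same tumour model that are non-neuroendocrine (Non-NE) by their labels. The comparison covers the 32926 gene symbols of the count table, of which 13921 had enough counts to be tested, in 5 of the 14 RNA sequencing libraries of the study. They were taken by their labels and by no measured value. The 2 day 21 libraries carry the driver CGRPCreER/+ and floxed alleles that include Rbf/f and P53f/f, together with the transgenes Rosa26rtTA and Tet-onYAP5SA. The 3 Non-NE libraries are labelled with the same driver and floxed alleles and with neither transgene, although the number after P runs on from label to label in their genotype field. Both groups are cell lines from lung tumours of adult mice of a mixed strain, with TM injected at a time that the labels give as after 2 months, grown in Hites medium. Each group thus shares the floxed Rb1 and Trp53 alleles under a Cre driven from the CGRP locus. In the day 21 cells the YAP transgene is under a tetracycline-controlled promoter. The labels do not say how many mice, clones or separate cultures the libraries of a group stand for, so the p-values measure the spread between these libraries, which may be partly technical. The YAP5SA libraries and the Non-NE libraries are separate library sets, so that state, line, transgene and set cannot be told apart.

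YAP (gene Yap1) and its paralog TAZ (gene Wwtr1) are transcriptional coactivators that the Hippo kinases keep out of the nucleus. YAP5SA has serines replaced by alanines, so that those kinases no longer restrain it. In the nucleus the coactivators bind the TEAD factors, which recognise a short DNA motif at genes for matrix, adhesion and growth. Small cell lung cancer is mostly neuroendocrine, driven by neural lineage factors and low in YAP, and holds a minority of non-neuroendocrine cells that express YAP and are often mesenchymal. Epithelial cells become mesenchymal through the repressors ZEB, SNAIL and TWIST, which bind E-box motifs at genes for cell junctions.

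The day 21 libraries held 10520200 and 10364505 counts and the Non-NE libraries 6730816, 9566030 and 10539136 counts, in the study's whole range of 6730816 to 10659524. Levels are given as CPM, read counts scaled to a common library total with trimmed mean of M values (TMM) factors, per library and not per gene length, with the libraries of each group in replicate order. For 45 of the 195 genes given by name with values or calls, Yap1, Rb1 and Csf1r among them, an exon overlaps a counted gene on the other strand in the GENCODE M21 annotation. Arhgef17 overlaps a counted gene on its own strand, as does Fgfr2. Reads of such pairs cannot be told apart, since the strand setting of the counting is not given in the sources used here. Libraries of day 21 were far closer to each other than those of Non-NE, with a biological coefficient of variation of 0.079 within day 21 and 0.464 within Non-NE. The 4 epithelial marker genes (Cdh1, Epcam, Krt8 and Krt18) together summed to 3015 and 3091 CPM at day 21 and to 4.82 to 31.2 CPM in Non-NE libraries. Of 5 endothelial markers, none reached 10 CPM in either group, and of 7 immune markers 4 were at 0 at day 21 and 3 at 0 in Non-NE. The immune markers summed to 111 and 135 CPM at day 21, nearly all of it Csf1r, and to 5.78 to 10.68 CPM in Non-NE libraries, and Csf1r at day 21 was the 1 marker at 10 CPM or more. Ptprc, the defining immune marker, was at 0 in both day 21 libraries and at 0.161, 0.366 and 0 CPM in Non-NE libraries.

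Of 13921 genes tested with the quasi-likelihood F test of edgeR, 5713 (41.0%) differed between day 21 and Non-NE cells at a Benjamini-Hochberg adjusted p under 0.05. Of the genes tested, 3325 (23.9%) were higher at day 21 and 2388 (17.2%) were lower, and the median log2 difference over all genes was 0.03. Counts of called genes in a gene list are to be read against these shares, which were high for any list. A lack of overlap between the groups was also common, in 9655 of the 13921 genes tested, called or not. Tested against a 2-fold change, 2917 genes passed, of which 2125 were higher and 792 lower. The count rested on both day 21 libraries being present. Without day 21 replicate 1 the test called 1222 genes and without replicate 2 it called 1101 genes, all of them among the 5713 and in the same direction. In these fits the lone day 21 library was assumed to vary like the Non-NE libraries. With the day 21 libraries summed to 1 sample the test called 1196 genes, all among the 5713. Leaving out a Non-NE library gave 5336 to 7384 calls. In longer endothelial and immune marker lists few genes were tested. Of 5 endothelial genes 3 were higher and 1 lower, and of 4 immune genes 2 were higher and 1 lower. Their called shares were 80.0% and 75.0%, beside 41.0% of all genes.

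**Figure D1:**
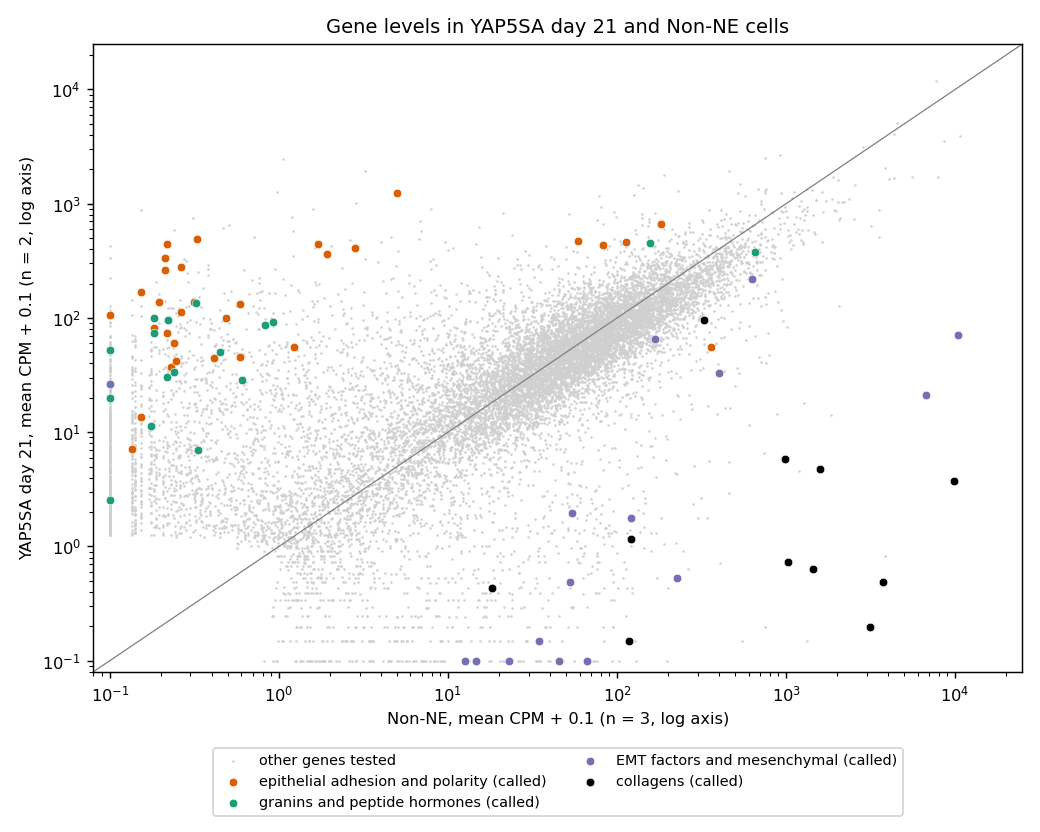
Mean level of each of the 13921 genes tested in YAP5SA day 21 libraries (vertical axis, n = 2) against Non-NE libraries (horizontal axis, n = 3), in CPM on log axes with 0.1 CPM added. Coloured points are the called members of 4 gene lists and grey points are the other genes tested. Most epithelial and granin genes lie at the upper left, where Non-NE levels are near 0, while most mesenchymal genes and the collagens lie at the lower right.

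The level of Yap1 did not separate the groups. It had 208 and 219 CPM at day 21, against 131, 257 and 225 CPM in Non-NE libraries, and the ranges overlapped. The log2 difference was 0.06 with a 95% interval of -0.71 to 0.84 (edgeR adjusted p = 0.89), so that a difference anywhere in that interval remains possible. The count for Yap1 pools transcripts of the resident gene with any transgene reads assigned to it. At day 0, Yap1 averaged 7.53 CPM (n = 2). The genotype field of day 0 replicate 1 names no transgene although its title places it in the YAP5SA course. In genes named by size, that library was also close to NE replicate 2. Dscaml1, for example, had 72.1 and 73.1 CPM in these 2 libraries, and 18.1 and 34.2 CPM in NE replicates 1 and 3. The 2 libraries may thus not be independent, and both doubts hold for every day 0 mean given here. Rb1, the retinoblastoma gene that the floxed allele removes in part, had 29.4 and 26.7 CPM at day 21, against 6.26, 6.35 and 4.34 CPM in Non-NE libraries (log2 difference 2.31 ± 0.29 SE, edgeR adjusted p = 0.0037). All day 21 values lay above all Non-NE values. Trp53, which encodes p53, had 6.39 and 5.62 CPM at day 21, against 17.99, 17.7 and 12.9 CPM in Non-NE libraries (log2 difference -1.43 ± 0.31 SE, edgeR adjusted p = 0.017), with no overlap in the other direction. The file gives a single count per gene, so a remaining read cannot be assigned to an intact or a recombined allele. The calls of Rb1 and Trp53 were lost when either day 21 library was left out (adjusted p between 0.058 and 0.18).

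The paralog of YAP and several TEAD genes were called different. Wwtr1 (TAZ) had 9.82 and 8.63 CPM at day 21, against 167, 204 and 214 CPM in Non-NE libraries (log2 difference -4.40 ± 0.22 SE, edgeR adjusted p = 0.00045). Both day 21 libraries were low and all 3 Non-NE libraries high, without overlap. Of the TEAD genes, Tead1 had 654 and 726 CPM at day 21, against 426, 289.7 and 254 CPM in Non-NE libraries (log2 difference 1.09 ± 0.26 SE, edgeR adjusted p = 0.024). Tead4 had 61.04 and 70.4 CPM at day 21, against 30.8, 11.3 and 12.8 CPM in Non-NE libraries (log2 difference 1.85 ± 0.48 SE, edgeR adjusted p = 0.029). Both were higher at day 21 in each library. Tead2, in contrast, had 16.8 and 18.2 CPM at day 21, against 140.4, 197 and 88.5 CPM in Non-NE libraries (log2 difference -3.02 ± 0.40 SE, edgeR adjusted p = 0.0044). Tead3 had 24.3 and 28.7 CPM at day 21, against 25.1, 41.1 and 15.97 CPM in Non-NE libraries and was not called (edgeR adjusted p = 0.94). The day 21 libraries lay inside the Non-NE range for Tead3 and below it for Tead2. Vgll3, a TEAD cofactor, had 5.15 and 5.43 CPM at day 21, against 82.2, 45.5 and 44.4 CPM in Non-NE libraries (log2 difference -3.43 ± 0.39 SE, edgeR adjusted p = 0.0031). Vgll1, a cofactor of the same family, had 1.72 and 1.36 CPM at day 21, against 0 CPM in every Non-NE library, at least 12.2-fold higher at day 21 (edgeR adjusted p = 0.013). Among the kinases of the Hippo cascade, Stk4 (MST1) had 330.3 and 314 CPM at day 21, against 92.7, 104 and 75.1 CPM in Non-NE libraries (log2 difference 1.83 ± 0.19 SE, edgeR adjusted p = 0.0023). Lats2, which phosphorylates YAP, had 244 and 281 CPM at day 21, against 90.7, 152 and 87.6 CPM in Non-NE libraries (log2 difference 1.25 ± 0.29 SE, edgeR adjusted p = 0.021). Both kinase genes were higher at day 21 without overlap. Stk3 (MST2), with 77.4 and 67.3 CPM at day 21, against 122, 72.01 and 76.5 CPM in Non-NE libraries, was not called (edgeR adjusted p = 0.40). Lats1, with 110.2 and 119.8 CPM at day 21, against 141, 123 and 104 CPM in Non-NE libraries, was not called either (edgeR adjusted p = 0.71). The protocadherin Fat4, an upstream regulator of the pathway, had 0.477 and 0.582 CPM at day 21, against 216, 243 and 326 CPM in Non-NE libraries (log2 difference -8.91 ± 0.36 SE, edgeR adjusted p = 0.00037). Of the 30 Hippo and TEAD genes listed, 28 were tested. Of these 7 were called higher, 7 lower and 14 neither, with a median log2 difference of 0.01, beside 0.03 over all genes. Without day 21 replicate 1, 1 higher and 3 lower calls remained in this list, and without replicate 2, 1 and 3. Leaving out either day 21 library ended the calls of Tead1, Tead4, Tead2, Vgll1 and Lats2 (adjusted p between 0.053 and 0.15). Vgll1 did not pass the count filter without day 21 replicate 1. Tead1 and Tead4 were no longer called without Non-NE replicate 2 (adjusted p = 0.059 and adjusted p = 0.056). Tead4 was no longer called without Non-NE replicate 3 (adjusted p = 0.068).

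**Figure D2:**
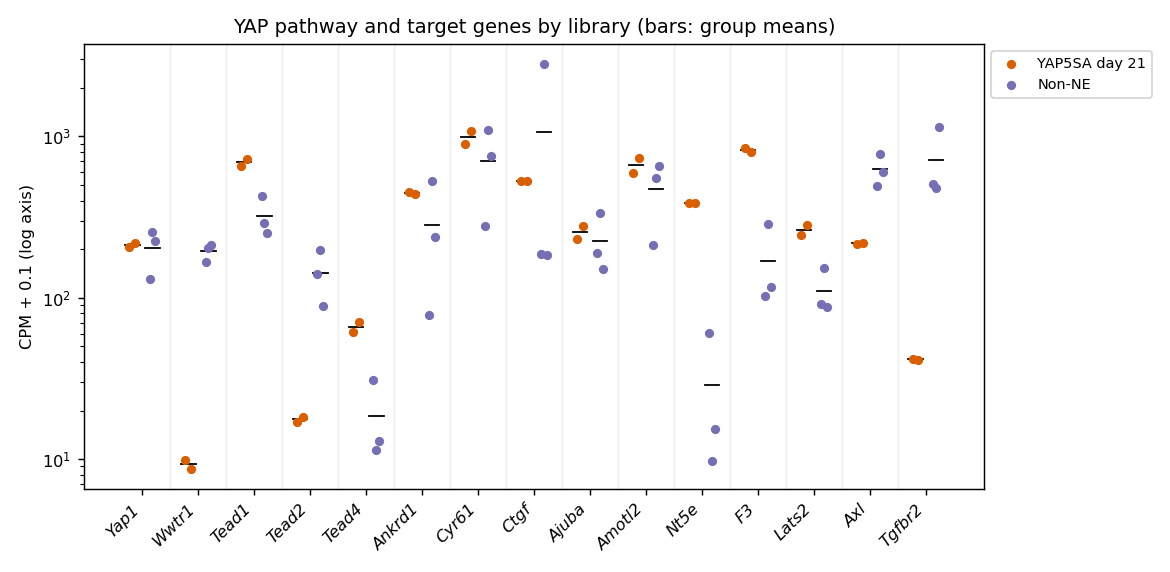
Level of 15 YAP pathway and target genes in each library, in CPM on a log axis with 0.1 CPM added, for YAP5SA day 21 (left in each pair, n = 2) and Non-NE (right in each pair, n = 3). Short bars are group means. Yap1, Ankrd1, Cyr61, Ctgf, Ajuba and Amotl2 overlap between the groups, while Wwtr1, Tead2, Axl and Tgfbr2 are lower and Nt5e, F3 and Lats2 higher at day 21.

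The target genes by which YAP activity is usually read were not called different. Ankrd1, a muscle ankyrin repeat protein, had 453 and 442 CPM at day 21, against 78.05, 529.9 and 239 CPM in Non-NE libraries. Cyr61, a matricellular protein, had 903 and 1079 CPM at day 21, against 278, 1093 and 755 CPM in Non-NE libraries. Ctgf, its relative, had 529.9 and 532 CPM at day 21, against 187, 2802 and 184 CPM in Non-NE libraries. In each of the 3 genes, the Non-NE libraries spread over several-fold and enclosed both day 21 values. The log2 differences were 0.66 for Ankrd1 (95% interval -1.18 to 2.51, edgeR adjusted p = 0.50), 0.48 for Cyr61 (-0.91 to 1.88, edgeR adjusted p = 0.52) and -0.99 for Ctgf (-4.32 to 2.33, edgeR adjusted p = 0.58). Intervals of that width do not show that the states are alike in those genes. A single library decided the sign for Ctgf, since without Non-NE replicate 2 it was higher at day 21 (log2 difference 1.51, edgeR adjusted p = 0.0054). The LIM protein Ajuba, a negative regulator of LATS, had 231 and 277 CPM at day 21, against 189, 335 and 149.8 CPM in Non-NE libraries (edgeR adjusted p = 0.73). Amotl2, a junction scaffold that binds YAP, had 594 and 736 CPM at day 21, against 213, 552 and 651 CPM in Non-NE libraries (edgeR adjusted p = 0.44). At day 0, each of the 5 genes was low or at 0, with group means of 0 CPM for Ankrd1, 0.187 CPM for Cyr61, 0 CPM for Ctgf, 0.187 CPM for Ajuba and 4.20 CPM for Amotl2.

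Other targets of the same list did separate the groups, in both directions. Nt5e, the ecto-nucleotidase CD73, had 386 and 386 CPM at day 21, against 60.7, 9.64 and 15.2 CPM in Non-NE libraries (log2 difference 3.77 ± 0.81 SE, edgeR adjusted p = 0.017). F3, tissue factor, had 848 and 803 CPM at day 21, against 103, 286 and 117 CPM in Non-NE libraries (log2 difference 2.29 ± 0.48 SE, edgeR adjusted p = 0.016). Dlc1, a GTPase-activating protein, had 396 and 457 CPM at day 21, against 83.7, 120.1 and 66.6 CPM in Non-NE libraries (log2 difference 2.24 ± 0.28 SE, edgeR adjusted p = 0.0039). All 3 were higher at day 21 without overlap. Axl, a receptor tyrosine kinase, had 216 and 218 CPM at day 21, against 495, 782 and 602 CPM in Non-NE libraries (log2 difference -1.53 ± 0.25 SE, edgeR adjusted p = 0.0076). Tgfbr2, the type II TGF-beta receptor, had 41.5 and 41.3 CPM at day 21, against 506, 478 and 1149 CPM in Non-NE libraries (log2 difference -4.10 ± 0.52 SE, edgeR adjusted p = 0.0041). Arhgef17, a guanine nucleotide exchange factor, had 18.9 and 21.5 CPM at day 21, against 129, 138 and 150 CPM in Non-NE libraries (log2 difference -2.78 ± 0.18 SE, edgeR adjusted p = 0.00066). In these 3 the highest day 21 value lay under the lowest Non-NE value. All 27 listed YAP and TAZ targets were tested. Of these 7 were higher, 8 lower and 12 not called, a called share of 55.6% beside 41.0% of all genes. Their median log2 difference was 0.18. In the YAP and TAZ targets 1 higher and 3 lower calls remained without day 21 replicate 1, and 1 and 2 without replicate 2. Among AP-1 genes, whose products often bind beside TEAD factors, Fos had 86.8 and 113 CPM at day 21, against 1.77, 2.68 and 3.28 CPM in Non-NE libraries (log2 difference 5.25 ± 0.32 SE, edgeR adjusted p = 0.00061). Fosl1, a relative of Fos, had 2.10 and 1.94 CPM at day 21, against 47.7, 92.5 and 81.8 CPM in Non-NE libraries (log2 difference -5.19 ± 0.42 SE, edgeR adjusted p = 0.0013). The 2 genes differed in opposite directions with no overlap for either. Jun, with 105 and 124 CPM at day 21, against 68.9, 175 and 105 CPM in Non-NE libraries, was not called (edgeR adjusted p = 0.97). Of 12 AP-1 genes tested 4 were higher and 1 lower, a called share of 41.7% beside 41.0% of all genes. Leaving out day 21 replicate 1 kept 2 higher and 1 lower calls in the AP-1 genes, and leaving out replicate 2 kept 2 and 1, while 4 higher and 2 lower calls were made without Non-NE replicate 1. With a single day 21 library, the calls of Nt5e, F3, Axl and Tgfbr2 were lost whichever was left out (adjusted p between 0.051 and 0.091).

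The promoters of Ankrd1 and Ajuba are shown because they hold the TEAD motif close to the start of a gene that both states express. Each is the 250 bases before the RefSeq start on the gene's strand (GRCm38.p6), with the core GGAATG, or CATTCC on the other strand, in capitals.
Ankrd1, chr19:36119845-36120094, minus strand: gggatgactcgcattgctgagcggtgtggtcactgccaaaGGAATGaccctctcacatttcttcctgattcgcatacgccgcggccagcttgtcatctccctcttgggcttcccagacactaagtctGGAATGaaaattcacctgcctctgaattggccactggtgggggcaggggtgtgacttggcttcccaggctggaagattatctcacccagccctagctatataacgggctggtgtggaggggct
Ajuba, chr14:54577662-54577911, minus strand: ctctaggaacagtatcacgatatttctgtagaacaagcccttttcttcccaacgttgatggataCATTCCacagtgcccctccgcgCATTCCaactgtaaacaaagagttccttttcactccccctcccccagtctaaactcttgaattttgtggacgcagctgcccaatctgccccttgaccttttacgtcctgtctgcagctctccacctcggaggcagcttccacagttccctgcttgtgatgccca
Ankrd1 and Ajuba each hold the core in 2 places. Of the 27 listed targets, 20 had a promoter in the table, and 7 of these (35.0%) held the core, beside 13.03% of the promoters of 10820 genes tested. Both genes were chosen for print after the motif had been found, and a match of letters is not a measured binding site.

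Of 34 epithelial adhesion and polarity genes tested, 30 were higher at day 21 than in Non-NE cells. In bulk libraries such as these, fewer cells of a type and less RNA per cell cannot be told apart. Cdh1, which encodes E-cadherin, had 1252 and 1253 CPM at day 21, against 0.803, 8.30 and 5.61 CPM in Non-NE libraries (log2 difference 7.96 ± 0.86 SE, edgeR adjusted p = 0.0027). Epcam, a surface adhesion protein of epithelia, had 439 and 450.2 CPM at day 21, against 0, 0.244 and 0.106 CPM in Non-NE libraries, a pooled level 3539-fold higher at day 21 (95% counting interval 1211 to 17165, 3 counts in the lower group, edgeR adjusted p = 0.00037). Such intervals and minima cover counting error only. Both were far above their Non-NE level in each library. The tight junction protein gene Ocln had 109.7 and 100.4 CPM at day 21, against 0 CPM in every Non-NE library, at least 836-fold higher at day 21 (edgeR adjusted p = 0.0011). Such a minimum is the pooled level of the higher group over a floor of 3 counts in all libraries of the other group together. Cldn4, a claudin, had 466 and 517 CPM at day 21, against 0.321, 0.366 and 0 CPM in Non-NE libraries (log2 difference 11.09 ± 0.58 SE, edgeR adjusted p = 0.00049). Esrp1, which drives epithelial splicing, had 279 and 284 CPM at day 21, against 0.161, 0.122 and 0.212 CPM in Non-NE libraries (log2 difference 10.60 ± 0.24 SE, edgeR adjusted p = 0.00026). Crb3, a polarity gene, had 77.7 and 84.7 CPM at day 21, against 0, 0.244 and 0 CPM in Non-NE libraries, a pooled level 969-fold higher at day 21 (95% counting interval 268 to 8011, 2 counts in the lower group, edgeR adjusted p = 0.00088). None of these junction genes overlapped between the groups. The list holds 35 genes, of which 1 was not tested, and of the 34 tested 1 was lower and 3 were not called, with a median log2 difference of 7.97 (7.99 with genes near 0 counts at their minimum or ratio). The lower gene was Perp, a desmosomal protein, with 60.9 and 50.3 CPM at day 21, against 403, 205 and 474 CPM in Non-NE libraries (log2 difference -2.70 ± 0.42 SE, edgeR adjusted p = 0.0069). Of the 30 genes, 27 averaged at least 10 CPM already at day 0 of the YAP5SA course. Cdh1, for example, averaged 888 CPM and Epcam 844 CPM at day 0 (n = 2 each). The calls kept in this list were 28 higher and 0 lower without day 21 replicate 1, and 27 and 0 without replicate 2, while 30 higher and 2 lower calls were made without Non-NE replicate 3. Perp lost its call with either day 21 library left out (adjusted p between 0.064 and 0.075).

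The promoters of the junction genes Epcam and Crb3 are shown because they hold the E-box CAGGTG, or CACCTG on the other strand, the sequence that ZEB and SNAIL proteins recognise. They are given in the same way, with the E-box in capitals. Crb3 has 2 RefSeq starts in the promoter set used, and only the stretch before the first listed is shown.
Epcam, chr17:87635729-87635978, plus strand: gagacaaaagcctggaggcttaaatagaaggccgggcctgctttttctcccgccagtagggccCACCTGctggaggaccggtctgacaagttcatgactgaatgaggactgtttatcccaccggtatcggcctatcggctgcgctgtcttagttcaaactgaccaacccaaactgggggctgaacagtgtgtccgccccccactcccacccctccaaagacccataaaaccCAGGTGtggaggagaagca
Crb3, chr17:57061951-57062200, plus strand: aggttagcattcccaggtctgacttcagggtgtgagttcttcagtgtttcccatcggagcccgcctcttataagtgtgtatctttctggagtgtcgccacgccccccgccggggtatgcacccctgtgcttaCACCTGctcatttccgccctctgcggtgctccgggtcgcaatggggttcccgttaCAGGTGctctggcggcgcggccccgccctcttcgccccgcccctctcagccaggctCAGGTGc
Of the 35 epithelial genes, 23 had a promoter in the table and 12 of these (52.2%) held the E-box, beside 19.1% of the 10820 promoters of genes tested. The TEAD core was in 2 of the 23 (8.70%), and the E-box in 3 of the 20 promoters of YAP targets (15.0%). A CACCTG in the Ankrd1 promoter and a CATTCC in the Crb3 promoter are left in lower case. The genes were again chosen after the search, and binding was not measured.

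Genes of the alveolar type I cell, the flat cell of gas exchange, were mostly higher at day 21 than in Non-NE cells, and several of them had been low at day 0. Ager, the receptor RAGE and a marker of that cell, had 1686 and 2144 CPM at day 21, against 1.45, 3.30 and 4.65 CPM in Non-NE libraries (log2 difference 9.22 ± 0.53 SE, edgeR adjusted p = 0.00056), beside a mean of 4.86 CPM at day 0. Clic5, a chloride channel family protein of that cell, had 874 and 885 CPM at day 21, against 0.161, 0 and 0 CPM in Non-NE libraries, a pooled level 20992-fold higher at day 21 (95% counting interval 3767 to 829191, 1 count in the lower group, edgeR adjusted p = 0.00037). Pdpn, podoplanin, had 735 and 665 CPM at day 21, against 0.642, 0.122 and 19.6 CPM in Non-NE libraries (log2 difference 6.64 ± 1.65 SE, edgeR adjusted p = 0.026). The 3 genes did not overlap between the groups, but Non-NE replicate 3 stood above the other Non-NE libraries in Pdpn. Col4a3, a basement membrane collagen chain, had 585 and 578 CPM at day 21, against 0.482, 1.71 and 1.16 CPM in Non-NE libraries (log2 difference 8.96 ± 0.43 SE, edgeR adjusted p = 0.00040). Emp2, a membrane protein, had 1754 and 1833 CPM at day 21, against 183, 177 and 207 CPM in Non-NE libraries (log2 difference 3.25 ± 0.17 SE, edgeR adjusted p = 0.00049). Both lay above every Non-NE library. The transcription factor Hopx had 186 and 163 CPM at day 21, against 5.30, 0.610 and 57.2 CPM in Non-NE libraries and was not called (edgeR adjusted p = 0.15). Cav1, a caveolin that type I cells also make, was lower at day 21, with 255 and 217 CPM at day 21, against 734, 435 and 973 CPM in Non-NE libraries (log2 difference -1.60 ± 0.38 SE, edgeR adjusted p = 0.023). Of 21 type I genes tested, 14 were higher, 1 was lower and 6 were not called (median log2 difference 3.45). Of those 14, 4 averaged under 1 CPM at day 0 and 4 at least 10 CPM. Of the type I genes, 10 were still called higher and 0 lower without day 21 replicate 1, and 10 and 0 without replicate 2. Most genes of the type II and airway list were called higher too, several of them at low levels. Of 4 type II markers, 1 averaged at least 10 CPM at day 21 and 1 in Non-NE, and 1 was at 0 in both groups. They summed to 142 and 164 CPM at day 21 and to 20.3 to 60.5 CPM in Non-NE libraries. Slc34a2, a phosphate transporter of type II cells, had 14.5 and 13.9 CPM at day 21, against 0, 0 and 0.106 CPM in Non-NE libraries, a pooled level 339-fold higher at day 21 (95% counting interval 60.3 to 13419.6, 1 count in the lower group, edgeR adjusted p = 0.0020). Scgb1a1, the club cell secretoglobin, had 21.7 and 17.9 CPM at day 21, against 0, 0.732 and 0.212 CPM in Non-NE libraries (log2 difference 5.86 ± 0.88 SE, edgeR adjusted p = 0.0062). Of 17 type II and airway genes tested, 12 were higher and 3 lower. For the type II and airway genes, the calls left were 3 higher and 0 lower without day 21 replicate 1 and 3 and 0 without replicate 2, while 11 higher and 1 lower calls were made without Non-NE replicate 3. The calls of Pdpn, Cav1 and Scgb1a1 were lost when either day 21 library was left out (adjusted p between 0.061 and 0.16).

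**Figure D3:**
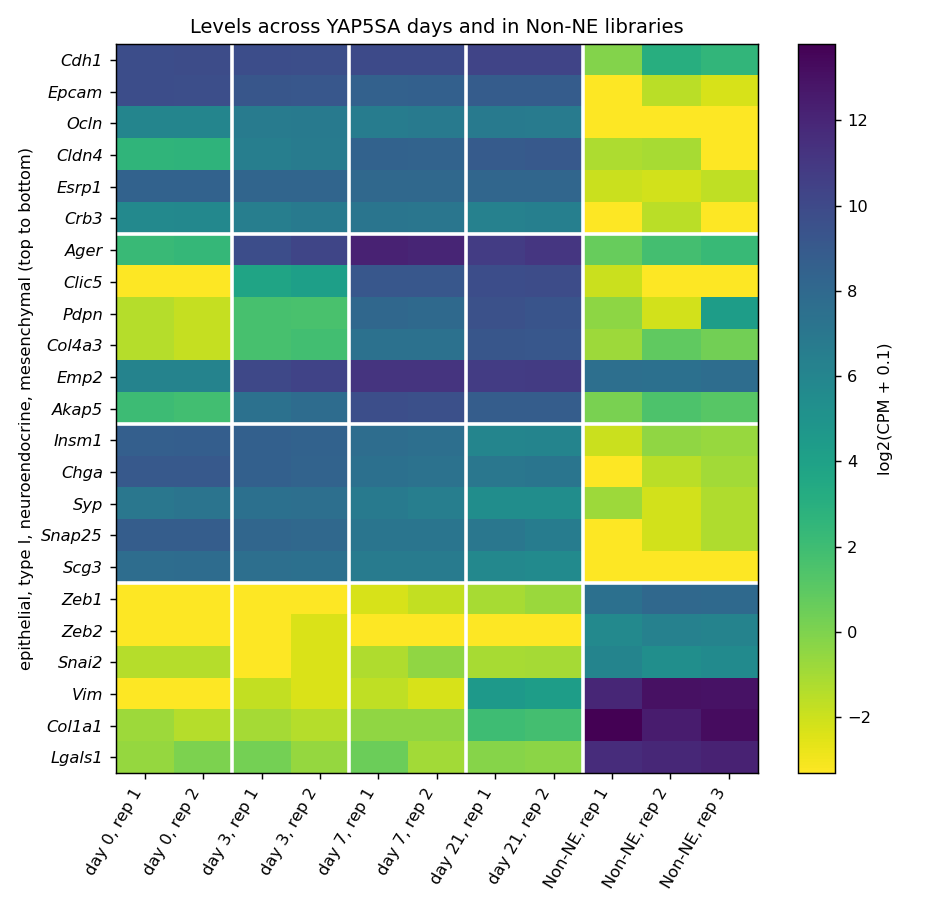
Level of 23 genes in each library as log2 of CPM with 0.1 added (colour), with columns for YAP5SA days 0, 3, 7 and 21 (n = 2 each) followed by Non-NE (n = 3). From top to bottom the rows are epithelial, type I, neuroendocrine and mesenchymal genes. Darker is higher. The epithelial rows are dark at day 0 and at day 21, with Cldn4 paler at day 0, most type I rows darken between day 0 and day 21, and the mesenchymal rows are dark in the Non-NE columns.

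Of 24 EMT factors and mesenchymal genes tested, 15 were lower at day 21 than in Non-NE cells. The 10 fibroblast and mural markers summed to 27.8 and 29.7 CPM at day 21 and to 249.6 to 912 CPM in Non-NE libraries. A large part of these sums was Pdgfrb, with 14.7 and 17.5 CPM at day 21, against 185, 347 and 864 CPM in Non-NE libraries. Of these markers 1 averaged at least 10 CPM at day 21 and 3 in Non-NE, Dpt and Tcf21 were at 0 at day 21 and Tcf21 was at 0 in Non-NE, and their part in the result was not tested. In a longer fibroblast and mural list 14 genes were tested. Of these 2 were higher, 4 lower and 8 not called, a called share of 42.9% beside 41.0% of all genes. Zeb1, a repressor of epithelial genes, had 0.382 and 0.485 CPM at day 21, against 176, 262 and 241 CPM in Non-NE libraries (log2 difference -8.99 ± 0.36 SE, edgeR adjusted p = 0.00037). Zeb2 had 0 CPM in both day 21 libraries, against 52.2, 77.1 and 69.3 CPM in Non-NE libraries, at least 468-fold lower at day 21 (edgeR adjusted p = 0.00076). Twist1 had 0 CPM in both day 21 libraries, against 40.6, 28.9 and 65.5 CPM in Non-NE libraries, at least 322-fold lower at day 21 (edgeR adjusted p = 0.0024). All 3 repressor genes were near or at 0 at day 21 and on in each Non-NE library. Snai1 had 1.72 and 2.04 CPM at day 21, against 41.3, 47.1 and 74.4 CPM in Non-NE libraries (log2 difference -4.84 ± 0.40 SE, edgeR adjusted p = 0.0013). Its relative Snai2 had 0.382 and 0.388 CPM at day 21, against 68.4, 41.01 and 47.8 CPM in Non-NE libraries (log2 difference -7.04 ± 0.42 SE, edgeR adjusted p = 0.00059). Both were lower at day 21 without overlap. Vim, the intermediate filament of mesenchymal cells, had 23.1 and 19.004 CPM at day 21, against 3941, 8264 and 7914 CPM in Non-NE libraries (log2 difference -8.32 ± 0.56 SE, edgeR adjusted p = 0.00076). Fn1, fibronectin, had 77.1 and 64.6 CPM at day 21, against 3981, 13443 and 13695 CPM in Non-NE libraries (log2 difference -7.19 ± 0.79 SE, edgeR adjusted p = 0.0028). Vim and Fn1 were below every Non-NE library in both day 21 libraries, and averaged 0 and 0.141 CPM at day 0. Cdh2, N-cadherin, had 104 and 101 CPM at day 21, against 104, 163 and 90.9 CPM in Non-NE libraries and was not called (edgeR adjusted p = 0.56). Thy1, a surface glycoprotein of both fibroblasts and neurons, was the 1 gene of this list that was higher at day 21, with 29.4 and 22.9 CPM at day 21, against 0 CPM in every Non-NE library, at least 208-fold higher at day 21 (edgeR adjusted p = 0.0031). Acta2, smooth muscle actin, showed how unlike the Non-NE libraries were, with 19.7 and 16.2 CPM at day 21, against 14.6, 3172 and 659.8 CPM in Non-NE libraries (edgeR adjusted p = 0.078). Besides the 15 lower genes of the list, 1 was higher and 8 were not called (median log2 difference -5.80). Of the 15 lower genes, 14 averaged under 1 CPM at day 0. Among this list, 0 higher and 10 lower calls held without day 21 replicate 1, and 1 and 10 held without replicate 2. Leaving out day 21 replicate 1 ended the call of Thy1 (adjusted p = 0.050).

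Of 22 collagens tested 11 were lower at day 21, among them Col1a1, Col1a2 and Col3a1, while the matrix genes Agrn and Lama3 were higher. The fibroblast and mural markers summed to 27.8 and 29.7 CPM at day 21 and to 249.6 to 912 CPM in Non-NE libraries, a large part of it Pdgfrb. Their part in the collagen result was not tested. Col1a1 had 3.91 and 3.30 CPM at day 21, against 14201, 5797 and 9454 CPM in Non-NE libraries (log2 difference -11.41 ± 0.69 SE, edgeR adjusted p = 0.00060). Col1a2 had 0.0954 and 0.679 CPM at day 21, against 2619, 3250.4 and 5375 CPM in Non-NE libraries (log2 difference -13.20 ± 0.92 SE, edgeR adjusted p = 0.00082). Col3a1 had 0 and 0.194 CPM at day 21, against 1447, 1061 and 6845 CPM in Non-NE libraries, a pooled level 35898-fold lower at day 21 (95% counting interval 9937 to 296422, 2 counts in the lower group, edgeR adjusted p = 0.0038). All 3 were at a few CPM or less at day 21 and abundant in each Non-NE library. The chains Col4a3 and Col4a4 stand in the type I list and not in the collagen list. In the collagen list 0 genes were higher by edgeR and 11 were not called (median log2 difference -5.13), while 0 were higher at an unadjusted p under 0.05 and 0 by the DESeq2 test. With limma-voom, with its quality weights, with the replicate block and with all 14 libraries in the fit, 1 or 2 collagens were called higher. Without day 21 replicate 1, 0 higher and 5 lower calls remained in the collagens, and without replicate 2, 0 and 5, while 1 higher and 16 lower calls were made without Non-NE replicate 1, 1 and 10 without replicate 2 and 2 and 11 without replicate 3. Ltbp1, which stores TGF-beta in the matrix, had 13.5 and 15.3 CPM at day 21, against 666, 1308 and 663 CPM in Non-NE libraries (log2 difference -5.93 ± 0.48 SE, edgeR adjusted p = 0.0013). Lox, a crosslinking enzyme, had 542 and 479.6 CPM at day 21, against 1293, 5055 and 4239.8 CPM in Non-NE libraries (log2 difference -2.79 ± 0.65 SE, edgeR adjusted p = 0.021), beside 0.235 CPM at day 0. Agrn, agrin, was instead higher at day 21, with 689 and 761 CPM at day 21, against 85.8, 58.9 and 83.2 CPM in Non-NE libraries (log2 difference 3.25 ± 0.22 SE, edgeR adjusted p = 0.00080). Lama3, a chain of an epithelial laminin, had 222 and 219.8 CPM at day 21, against 0.321, 0.854 and 1.69 CPM in Non-NE libraries (log2 difference 7.75 ± 0.49 SE, edgeR adjusted p = 0.00067). Each day 21 value of Agrn and Lama3 was above each Non-NE value. Itgb6, the beta chain of an epithelial integrin that activates TGF-beta, had 185 and 179.7 CPM at day 21, against 0.161, 0.610 and 0 CPM in Non-NE libraries (log2 difference 9.42 ± 0.67 SE, edgeR adjusted p = 0.00087). Itgav, an alpha chain that pairs with it, had 59.9 and 52.8 CPM at day 21, against 241, 505 and 314 CPM in Non-NE libraries (log2 difference -2.65 ± 0.38 SE, edgeR adjusted p = 0.0054) and was lower. Of 34 matrix glycoproteins and crosslinking enzymes tested, 4 were higher and 19 lower, and of 24 integrins and laminins 7 were higher and 6 lower. In the matrix glycoproteins 2 higher and 9 lower calls remained without day 21 replicate 1, and 1 and 9 without replicate 2. Leaving out day 21 replicate 1 kept 4 higher and 2 lower calls in the integrins and laminins, and leaving out replicate 2 kept 4 and 2, while 7 higher and 11 lower calls were made without Non-NE replicate 1. With a single day 21 library, the calls of Lox and Itgav were lost whichever was left out (adjusted p between 0.058 and 0.14).

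Protease, inhibitor and contractile genes were mostly lower or not called. Timp1, an inhibitor of matrix metalloproteinases, had 0.668 and 1.26 CPM at day 21, against 144, 137 and 387 CPM in Non-NE libraries (log2 difference -7.83 ± 0.82 SE, edgeR adjusted p = 0.0025). Mmp14, a membrane protease, had 55.99 and 64.8 CPM at day 21, against 228, 522 and 406 CPM in Non-NE libraries (log2 difference -2.67 ± 0.41 SE, edgeR adjusted p = 0.0063). Both were lower at day 21 without overlap, and of 27 genes tested in that list 4 were higher and 13 lower. The calls kept in the proteases and inhibitors were 0 higher and 4 lower without day 21 replicate 1, and 0 and 3 without replicate 2, while 2 higher and 18 lower calls were made without Non-NE replicate 1. Among actin and focal adhesion genes, Flna, filamin A, had 612 and 666 CPM at day 21, against 2417, 4554 and 2523 CPM in Non-NE libraries (log2 difference -2.31 ± 0.37 SE, edgeR adjusted p = 0.0075). Zyx, zyxin, had 129.8 and 143 CPM at day 21, against 476, 782 and 547 CPM in Non-NE libraries (log2 difference -2.14 ± 0.28 SE, edgeR adjusted p = 0.0043). Ezr, which links actin to apical membranes, had 785 and 832 CPM at day 21, against 159.8, 186 and 77.02 CPM in Non-NE libraries (log2 difference 2.52 ± 0.39 SE, edgeR adjusted p = 0.0066) and was the 1 called higher. Of 34 such genes, 11 were lower and 22 were not called, a called share of 35.3% beside 41.0% of all genes. Of the actin genes, 0 were still called higher and 1 lower without day 21 replicate 1, and 0 and 1 without replicate 2, while 1 higher and 17 lower calls were made without Non-NE replicate 1 and 2 and 9 without replicate 2. Mmp14, Flna, Zyx and Ezr lost their calls with either day 21 library left out (adjusted p between 0.051 and 0.085).

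Most neuroendocrine genes were higher at day 21 than in Non-NE cells, with 9 of 13 factors, 16 of 18 granins and peptide hormone genes and 27 of 37 synaptic genes tested. Insm1, a factor of the neuroendocrine lineage, had 65.3 and 66.2 CPM at day 21, against 0.161, 0.610 and 0.529 CPM in Non-NE libraries (log2 difference 7.14 ± 0.41 SE, edgeR adjusted p = 0.00056). Chga, chromogranin A of the secretory granule, had 131 and 140.1 CPM at day 21, against 0, 0.244 and 0.423 CPM in Non-NE libraries (log2 difference 9.02 ± 0.54 SE, edgeR adjusted p = 0.00060). The lowest day 21 value was above the highest Non-NE value in both genes. Their levels at day 0 averaged 408 and 517 CPM (n = 2 each). Scg3, a granin, had 54.8 and 49.3 CPM at day 21, against 0 CPM in every Non-NE library, at least 414-fold higher at day 21 (edgeR adjusted p = 0.0016). Syp, synaptophysin, had 42.2 and 42.7 CPM at day 21, against 0.482, 0.122 and 0.317 CPM in Non-NE libraries (log2 difference 7.09 ± 0.45 SE, edgeR adjusted p = 0.00066). Snap25, of the synaptic fusion machinery, had 126 and 95.7 CPM at day 21, against 0, 0.122 and 0.317 CPM in Non-NE libraries (log2 difference 9.28 ± 0.56 SE, edgeR adjusted p = 0.00061). All of these were at most near 1 CPM in Non-NE libraries. Rest, the repressor of neuronal genes, was lower at day 21, with 29.9 and 34.5 CPM at day 21, against 63.9, 74.4 and 54.7 CPM in Non-NE libraries (log2 difference -0.999 ± 0.21 SE, edgeR adjusted p = 0.016), beside 0.0929 CPM at day 0. Ncam1, an adhesion molecule used to diagnose the tumour, had 146 and 158 CPM at day 21, against 56.05, 345 and 409 CPM in Non-NE libraries and was not called (edgeR adjusted p = 0.44). In these lists 2 factors, 1 granin or hormone gene and 1 synaptic gene were lower. In the 3 lists 8, 14 and 25 of the higher genes averaged at least 10 CPM at day 0. For the neuroendocrine factors, the calls left were 6 higher and 0 lower without day 21 replicate 1 and 5 and 0 without replicate 2. Among the granins, 12 higher and 0 lower calls held without day 21 replicate 1, and 11 and 0 held without replicate 2. Without day 21 replicate 1, 17 higher and 0 lower calls remained in the synaptic genes, and without replicate 2, 17 and 0, while 28 higher and 4 lower calls were made without Non-NE replicate 1. The call of Rest was lost when either day 21 library was left out (adjusted p between 0.11 and 0.16).

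Lung lineage factors were split. Nkx2-1, the lung and thyroid identity factor, had 389.6 and 419.7 CPM at day 21, against 106, 70.8 and 85.1 CPM in Non-NE libraries (log2 difference 2.21 ± 0.21 SE, edgeR adjusted p = 0.0020). Grhl2, an activator of epithelial junction genes, had 54.8 and 53.9 CPM at day 21, against 0.161, 0.244 and 0 CPM in Non-NE libraries, a pooled level 433-fold higher at day 21 (95% counting interval 148 to 2102, 3 counts in the lower group, edgeR adjusted p = 0.00089). Elf3, an epithelial factor, had 114 and 136 CPM at day 21, against 0, 0.122 and 0.423 CPM in Non-NE libraries (log2 difference 9.15 ± 0.59 SE, edgeR adjusted p = 0.00071). The 3 were higher at day 21 with no overlap. Irx1, an Iroquois factor, had 0.0954 and 0.0970 CPM at day 21, against 24.6, 27.7 and 59.9 CPM in Non-NE libraries, a pooled level 412-fold lower at day 21 (95% counting interval 114 to 3408, 2 counts in the lower group, edgeR adjusted p = 0.0017). Sox9, a factor of the distal lung bud, had 8.30 and 9.50 CPM at day 21, against 32.4, 45.9 and 132 CPM in Non-NE libraries (log2 difference -2.98 ± 0.72 SE, edgeR adjusted p = 0.024). Of 21 factors tested 8 were higher and 6 lower. In the lung factors 4 higher and 1 lower calls remained without day 21 replicate 1, and 4 and 1 without replicate 2. Among homeobox genes, all 8 tested genes of the Hoxb cluster were higher at day 21. Hoxb5 had 67.7 and 78.1 CPM at day 21, against 0.642, 0 and 0.529 CPM in Non-NE libraries (log2 difference 7.53 ± 0.73 SE, edgeR adjusted p = 0.0021). Hoxb4 had 46.9 and 51.9 CPM at day 21, against 0.161, 0.854 and 0.317 CPM in Non-NE libraries (log2 difference 6.72 ± 0.55 SE, edgeR adjusted p = 0.0013). Hoxa3, Hoxa4, Hoxa5, Hoxa6 and Hoxa7 had at most 0.0954 CPM at day 21 and were not called. In Non-NE replicate 2 they were at 0 to 0.122 CPM, whereas replicates 1 and 3 had 1.06 to 9.31 CPM. Leaving out day 21 replicate 1 kept 6 higher and 0 lower calls in the HOX genes, and leaving out replicate 2 kept 4 and 0, while 8 higher and 0 lower calls were made without Non-NE replicate 1, 8 and 5 without replicate 2 and 8 and 0 without replicate 3. Leaving out either day 21 library ended the call of Sox9 (adjusted p between 0.14 and 0.15).

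Growth factor receptors were called in both directions. Met, the receptor of hepatocyte growth factor, had 0.858 and 0.776 CPM at day 21, against 155, 130.5 and 193 CPM in Non-NE libraries (log2 difference -7.58 ± 0.32 SE, edgeR adjusted p = 0.00037). Fgfr1 had 0.477 and 0.194 CPM at day 21, against 17.02, 182 and 169.9 CPM in Non-NE libraries (log2 difference -8.46 ± 1.52 SE, edgeR adjusted p = 0.010). Pdgfrb, a receptor of mesenchymal cells, had 14.7 and 17.5 CPM at day 21, against 185, 347 and 864 CPM in Non-NE libraries (log2 difference -4.85 ± 0.81 SE, edgeR adjusted p = 0.0083). The 3 receptors were lower at day 21, without overlap. Egfr had 179 and 184 CPM at day 21, against 18.3, 21.7 and 49.8 CPM in Non-NE libraries (log2 difference 2.59 ± 0.46 SE, edgeR adjusted p = 0.0098). Erbb3, of the same family, had 99.4 and 115 CPM at day 21, against 1.61, 0.244 and 0.106 CPM in Non-NE libraries (log2 difference 7.50 ± 0.84 SE, edgeR adjusted p = 0.0029). Fgfr2, whose splice forms differ between epithelium and mesenchyme, had 174 and 177 CPM at day 21, against 30.2, 18.1 and 8.15 CPM in Non-NE libraries (log2 difference 3.23 ± 0.52 SE, edgeR adjusted p = 0.0077). These 3 were higher at day 21, again without overlap. Igf2, a growth factor imprinted in most tissues, had 2520.2 and 2411 CPM at day 21, against 2.89, 0 and 0 CPM in Non-NE libraries (log2 difference 11.52 ± 1.48 SE, edgeR adjusted p = 0.0042). Igf2os, annotated on the opposite strand of that locus, had 54.1 and 81.8 CPM at day 21, against 0 CPM in every Non-NE library, and reads of the 2 genes cannot be told apart. Of 38 receptors and ligands tested, 11 were higher and 11 lower. The calls kept in the receptors and ligands were 3 higher and 2 lower without day 21 replicate 1, and 3 and 2 without replicate 2. With a single day 21 library, the calls of Fgfr1, Pdgfrb, Egfr and Fgfr2 were lost whichever was left out (adjusted p between 0.055 and 0.089).

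Wnt and Notch genes were also called in both directions. Wnt7a, a ligand, had 270 and 304 CPM at day 21, against 0, 0.366 and 0.106 CPM in Non-NE libraries (log2 difference 10.63 ± 0.51 SE, edgeR adjusted p = 0.00041). Fzd5, a Wnt receptor, had 105 and 123 CPM at day 21, against 13.7, 19.8 and 25.5 CPM in Non-NE libraries (log2 difference 2.53 ± 0.29 SE, edgeR adjusted p = 0.0032). Both were higher at day 21 in each library. Fzd1, another receptor, had 3.34 and 5.24 CPM at day 21, against 60.1, 34.5 and 58.4 CPM in Non-NE libraries (log2 difference -3.57 ± 0.40 SE, edgeR adjusted p = 0.0030). Fzd2 had 20.1 and 21.04 CPM at day 21, against 119, 131 and 130 CPM in Non-NE libraries (log2 difference -2.62 ± 0.16 SE, edgeR adjusted p = 0.00061). These 2 receptor genes were lower at day 21 without overlap. Sfrp2, a secreted Wnt antagonist, had 0 and 0.194 CPM at day 21, against 1404, 29.7 and 831 CPM in Non-NE libraries, a pooled level 7337-fold lower at day 21 (95% counting interval 2031 to 60589.7, 2 counts in the lower group, edgeR adjusted p = 0.014). Axin2, a feedback target of the pathway, had 5.34 and 3.68 CPM at day 21, against 1.77, 1.34 and 5.82 CPM in Non-NE libraries and was not called (edgeR adjusted p = 0.55). Of 32 Wnt genes tested 8 were higher and 10 lower, a called share of 56.2% beside 41.0% of all genes. Of the Wnt genes, 3 were still called higher and 4 lower without day 21 replicate 1, and 3 and 4 without replicate 2. Jag2, a Notch ligand, had 129 and 168 CPM at day 21, against 2.89, 1.95 and 0.423 CPM in Non-NE libraries (log2 difference 6.46 ± 0.66 SE, edgeR adjusted p = 0.0023). Notch2, a receptor, had 85.7 and 103 CPM at day 21, against 160.1, 175 and 281 CPM in Non-NE libraries (log2 difference -1.12 ± 0.30 SE, edgeR adjusted p = 0.034). The effector Hes1 had 79.7 and 78.2 CPM at day 21, against 4.34, 45.9 and 36.5 CPM in Non-NE libraries and was not called (edgeR adjusted p = 0.22). Of 19 Notch genes tested 6 were higher and 6 lower, a called share of 63.2%. Of 31 TGF-beta and BMP genes 2 were higher and 4 lower, a share of 19.4%, beside 41.0% of all genes. For the Notch genes, the calls left were 1 higher and 0 lower without day 21 replicate 1 and 1 and 0 without replicate 2. Among the TGF-beta and BMP genes, 0 higher and 2 lower calls held without day 21 replicate 1, and 0 and 2 held without replicate 2, while 4 higher and 13 lower calls were made without Non-NE replicate 1 and 7 and 4 without replicate 2. Sfrp2 and Notch2 lost their calls with either day 21 library left out (adjusted p between 0.10 and 0.21).

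Interferon-stimulated genes were mostly higher or not called at day 21. Rsad2, viperin, had 83.8 and 76.7 CPM at day 21, against 0.321, 0.122 and 1.16 CPM in Non-NE libraries (log2 difference 7.11 ± 0.68 SE, edgeR adjusted p = 0.0020). Ifit1, an antiviral RNA-binding protein, had 90.4 and 69.03 CPM at day 21, against 1.12, 0.122 and 0.741 CPM in Non-NE libraries (log2 difference 6.93 ± 0.63 SE, edgeR adjusted p = 0.0017). Irf7, an activator of interferon genes, had 30.5 and 28.7 CPM at day 21, against 0.964, 0.610 and 2.01 CPM in Non-NE libraries (log2 difference 4.59 ± 0.52 SE, edgeR adjusted p = 0.0031). Each gene was at most 2.01 CPM in any Non-NE library and at least 28.7 CPM in either day 21 library. Of 34 such genes tested 18 were higher, 1 was lower and 15 were not called, with a median log2 difference of 1.77. The lower gene was Gbp2, a guanylate-binding protein, with 0.763 and 0.291 CPM at day 21, against 22.3, 11.1 and 28.6 CPM in Non-NE libraries (log2 difference -5.25 ± 0.71 SE, edgeR adjusted p = 0.0048). Genes of class I antigen presentation were higher or not called. H2-D1, a class I heavy chain, had 421 and 463 CPM at day 21, against 116, 89.5 and 111 CPM in Non-NE libraries (log2 difference 2.07 ± 0.18 SE, edgeR adjusted p = 0.0015). B2m, the shared light chain, had 464 and 338 CPM at day 21, against 384, 431 and 297 CPM in Non-NE libraries and was not called (edgeR adjusted p = 0.73). Counts of H2 genes are uncertain, since near-identical copies can share reads. Of 23 such genes 8 were higher and 0 lower by edgeR, a called share of 34.8% beside 41.0% of all genes. At an unadjusted p under 0.05, 2 of the class I genes were lower, and 3 by the DESeq2 test. Without day 21 replicate 1, 7 higher and 1 lower calls remained in the interferon-stimulated genes, and without replicate 2, 6 and 0, while 19 higher and 3 lower calls were made without Non-NE replicate 2. In the class I genes 1 higher and 0 lower calls remained without day 21 replicate 1, and 1 and 0 without replicate 2, while 8 higher and 1 lower calls were made without Non-NE replicate 2. The call of Gbp2 was lost when day 21 replicate 2 was left out (adjusted p = 0.052).

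Secreted signals to immune cells were called in both directions. Cxcl12, the stromal chemokine, had 0.0954 and 0 CPM at day 21, against 1821, 1255 and 938 CPM in Non-NE libraries, a pooled level 26562-fold lower at day 21 (95% counting interval 4767 to 1049160, 1 count in the lower group, edgeR adjusted p = 0.00050). Csf1, the macrophage growth factor, had 135 and 139 CPM at day 21, against 739.7, 790.4 and 1168 CPM in Non-NE libraries (log2 difference -2.71 ± 0.28 SE, edgeR adjusted p = 0.0024). Il33, an alarmin, had 0 CPM in both day 21 libraries, against 17.2, 36.98 and 174 CPM in Non-NE libraries, at least 597-fold lower at day 21 (edgeR adjusted p = 0.019). The 3 were lower at day 21 without overlap. Cxcl16, a membrane-bound chemokine, had 147 and 161 CPM at day 21, against 4.50, 4.76 and 6.45 CPM in Non-NE libraries (log2 difference 4.86 ± 0.23 SE, edgeR adjusted p = 0.00040). Cd274, the checkpoint ligand PD-L1, had 118 and 119 CPM at day 21, against 1.61, 2.81 and 2.43 CPM in Non-NE libraries (log2 difference 5.67 ± 0.27 SE, edgeR adjusted p = 0.00042). Both were higher in each day 21 library than in any Non-NE library. Csf1r, the receptor of the Csf1 product, had 103 and 126 CPM at day 21, against 0.642, 0.976 and 1.59 CPM in Non-NE libraries (log2 difference 6.68 ± 0.37 SE, edgeR adjusted p = 0.00052), in day 21 libraries where the pan-immune marker Ptprc was at 0. Of 23 chemokines and cytokines tested 9 were higher and 9 lower. Leaving out day 21 replicate 1 kept 3 higher and 3 lower calls in the chemokines and cytokines, and leaving out replicate 2 kept 2 and 3. Leaving out either day 21 library ended the call of Il33 (adjusted p between 0.082 and 0.083).

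Replication genes were lower or not called at day 21. Tyms, thymidylate synthase, had 34.3 and 28.2 CPM at day 21, against 145, 112 and 109 CPM in Non-NE libraries (log2 difference -1.96 ± 0.22 SE, edgeR adjusted p = 0.0029). Mcm5, of the replicative helicase, had 77.9 and 85.9 CPM at day 21, against 351, 219.7 and 204 CPM in Non-NE libraries (log2 difference -1.66 ± 0.30 SE, edgeR adjusted p = 0.010). Pola2, of the primase complex, had 34.7 and 36.1 CPM at day 21, against 123, 109 and 97.5 CPM in Non-NE libraries (log2 difference -1.63 ± 0.17 SE, edgeR adjusted p = 0.0026). The 3 genes did not overlap between the groups. Of 30 replication genes tested 20 were lower and 0 higher by edgeR, with a median log2 difference of -0.89, while 1 was higher at an unadjusted p under 0.05 and 1 by the DESeq2 test. Of 26 mitotic genes 11 were lower and 0 higher by edgeR, while 1 was higher at an unadjusted p under 0.05 and 1 by the DESeq2 test. Kif20a, a mitotic kinesin, had 69.6 and 64.1 CPM at day 21, against 239, 292 and 232 CPM in Non-NE libraries (log2 difference -1.93 ± 0.18 SE, edgeR adjusted p = 0.0020). The proliferation marker Mki67, with 501 and 507 CPM at day 21, against 951, 419 and 414 CPM in Non-NE libraries, was not called (edgeR adjusted p = 0.68). With scaling by library totals only, under which the median of all genes moved to 0.20, 16 replication genes were lower and 0 higher, and 7 mitotic genes were lower and 1 higher. Cdkn1a, the cyclin-dependent kinase inhibitor p21, had 98.05 and 102 CPM at day 21, against 10.3, 3.54 and 8.57 CPM in Non-NE libraries (log2 difference 3.75 ± 0.45 SE, edgeR adjusted p = 0.0036). Cdk6, a G1 kinase, had 0.858 and 1.55 CPM at day 21, against 50.9, 21.97 and 27.9 CPM in Non-NE libraries (log2 difference -4.78 ± 0.58 SE, edgeR adjusted p = 0.0037). Cdkn1a was higher and Cdk6 lower at day 21, both without overlap. The calls kept in the replication genes were 0 higher and 2 lower without day 21 replicate 1, and 0 and 2 without replicate 2, while 1 higher and 24 lower calls were made without Non-NE replicate 1. Of the mitotic genes, 0 were still called higher and 1 lower without day 21 replicate 1, and 0 and 1 without replicate 2, while 0 higher and 7 lower calls were made without Non-NE replicate 2. With a single day 21 library, the call of Mcm5 was lost whichever was left out (adjusted p between 0.085 and 0.096).

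Genes of the MYC network and the NFI family were called in both directions. Mycn had 9.63 and 8.24 CPM at day 21, against 0, 0.122 and 0 CPM in Non-NE libraries, a pooled level 214-fold higher at day 21 (95% counting interval 37.9 to 8478, 1 count in the lower group, edgeR adjusted p = 0.0030). Mycl had 28.04 and 29.1 CPM at day 21, against 1.93, 7.81 and 2.75 CPM in Non-NE libraries (log2 difference 2.77 ± 0.62 SE, edgeR adjusted p = 0.019). Myc itself had 90.1 and 95.4 CPM at day 21, against 135, 181 and 149.8 CPM in Non-NE libraries (log2 difference -0.74 ± 0.18 SE, edgeR adjusted p = 0.026) and was lower. Max, the obligate partner of the MYC proteins, had 6.49 and 4.85 CPM at day 21, against 63.4, 129 and 114 CPM in Non-NE libraries (log2 difference -4.17 ± 0.42 SE, edgeR adjusted p = 0.0023), beside 7.53 CPM at day 0. Nfib, a factor gained in neuroendocrine lung tumours, had 259.5 and 247 CPM at day 21, against 606, 539.9 and 699 CPM in Non-NE libraries (log2 difference -1.28 ± 0.19 SE, edgeR adjusted p = 0.0057). Nfix had 35.5 and 36.9 CPM at day 21, against 551, 301 and 679.9 CPM in Non-NE libraries (log2 difference -3.82 ± 0.42 SE, edgeR adjusted p = 0.0029). Neither NFI gene overlapped between the groups. Of 15 genes tested in this list 5 were higher and 6 lower. For the MYC and NFI list, the calls left were 4 higher and 2 lower without day 21 replicate 1 and 4 and 2 without replicate 2. Mycl, Myc and Nfib lost their calls with either day 21 library left out (adjusted p between 0.075 and 0.20).

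Glucose handling genes were higher or not called at day 21. Slc2a3, the glucose transporter GLUT3, had 88.9 and 79.02 CPM at day 21, against 0.161, 0.122 and 0.212 CPM in Non-NE libraries (log2 difference 8.86 ± 0.29 SE, edgeR adjusted p = 0.00034), beside 0.0942 CPM at day 0. Pfkp, a phosphofructokinase, had 332 and 328 CPM at day 21, against 13.97, 19.2 and 43.3 CPM in Non-NE libraries (log2 difference 3.69 ± 0.50 SE, edgeR adjusted p = 0.0049). Pfkfb3, which makes the activator of that enzyme, had 322 and 339 CPM at day 21, against 38.7, 48.2 and 39.8 CPM in Non-NE libraries (log2 difference 2.97 ± 0.17 SE, edgeR adjusted p = 0.00053). All Non-NE libraries were below both day 21 libraries in these genes. Ldha, lactate dehydrogenase A, had 1051 and 1073 CPM at day 21, against 657, 539 and 945 CPM in Non-NE libraries and was not called (edgeR adjusted p = 0.15). Of 28 glycolysis and hypoxia genes tested 17 were higher, 0 lower and 11 not called by edgeR (median log2 difference 1.88), while 1 was lower at an unadjusted p under 0.05 and 1 by the DESeq2 test. Of the 17, 15 averaged at least 10 CPM at day 0. Among detoxification genes, Aldh1a1, a retinaldehyde dehydrogenase, had 143 and 110 CPM at day 21, against 0.482, 0.366 and 0.529 CPM in Non-NE libraries (log2 difference 8.06 ± 0.28 SE, edgeR adjusted p = 0.00037). Aldh2, the mitochondrial enzyme of acetaldehyde, had 17.7 and 12.6 CPM at day 21, against 290.2, 174 and 176 CPM in Non-NE libraries (log2 difference -3.81 ± 0.36 SE, edgeR adjusted p = 0.0020). Of 28 tested 8 were higher and 5 lower, a called share of 46.4% beside 41.0% of all genes. Among the glycolysis and hypoxia genes, 8 higher and 0 lower calls held without day 21 replicate 1, and 8 and 0 held without replicate 2, while 16 higher and 2 lower calls were made without Non-NE replicate 1 and 20 and 1 without replicate 3. Without day 21 replicate 1, 5 higher and 3 lower calls remained in the detoxification genes, and without replicate 2, 4 and 2.

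The genes with the largest differences were taken by a rule of size, without regard to function. These are differences of day 21 from Non-NE and not changes over the YAP5SA course. Slc6a14, for example, averaged 0.0942 CPM at day 0 and 430 CPM at day 21, while Cadps2 averaged 189 CPM at day 0 and 56.3 CPM at day 21. Of the 20 genes furthest above Non-NE at day 21, 19 were at 0 in every Non-NE library. The first was Slc6a14, an amino acid transporter of epithelia, with 474 and 385 CPM at day 21, against 0 CPM in every Non-NE library, at least 3421-fold higher at day 21 (edgeR adjusted p = 0.00082). Kcnk1, a potassium channel, had 346 and 323 CPM at day 21, against 0 CPM in every Non-NE library, at least 2665-fold higher at day 21 (edgeR adjusted p = 0.00067). Prss8, an epithelial protease that activates sodium channels, had 115 and 138 CPM at day 21, against 0 CPM in every Non-NE library, at least 1006-fold higher at day 21 (edgeR adjusted p = 0.0011). Scnn1g, a subunit of that sodium channel, had 119 and 116 CPM at day 21, against 0 CPM in every Non-NE library, at least 936-fold higher at day 21 (edgeR adjusted p = 0.00092). Ocln, Clic5, Ildr1 (a protein of tricellular junctions), Mapk13, Ceacam1, Hcrtr1, Eps8l1, Ppp1r3b, Igf2os, Dab1, Exph5, Dscaml1, Neto1, Cadps2 and Tmem54 made up the rest, with a gene whose symbol had been turned into a date and is not named. Of the 20 genes furthest below Non-NE at day 21, Col3a1, Cxcl12, Postn, Col1a2, Sfrp2, Il33, Zeb2, Twist1, Col1a1 and Col5a1 are matrix, signalling and EMT genes. Lgals1, galectin 1, had 0.763 and 0.679 CPM at day 21, against 3203, 3828 and 4558 CPM in Non-NE libraries (log2 difference -12.36 ± 0.40 SE, edgeR adjusted p = 0.00034). Among the others were the developmental factors Ebf1, Tbx18 and Tcf7l2. Gas1, Gxylt2, Nrn1, Pth1r and Gpr176 were others of the 20 and were at 0 in both day 21 libraries. In Gas1, the Non-NE libraries ran over 232, 5.25 and 149 CPM, with replicate 2 the lowest. The calls of Postn, Ebf1, Tbx18, Gas1, Pth1r and Gpr176 were lost when either day 21 library was left out (adjusted p between 0.051 and 0.12). Gas1 was no longer called without Non-NE replicate 1 (adjusted p = 0.059). Pth1r was no longer called without Non-NE replicate 2 (adjusted p = 0.060). Gas1 was no longer called without Non-NE replicate 3 (adjusted p = 0.074).

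Among genes with a mean of at least 10 CPM in each group, the differences were smaller, since that requirement limits their size. Not every library reached that level, as in Igfbp2 with 2.57, 10.0 and 58.7 CPM in Non-NE libraries. First among those higher at day 21 was Serpinb9b, a serine protease inhibitor, with 655 and 596 CPM at day 21, against 20.9, 14.5 and 10.2 CPM in Non-NE libraries (log2 difference 5.37 ± 0.34 SE, edgeR adjusted p = 0.00069). Pvrl2, nectin 2, had 405 and 416 CPM at day 21, against 14.3, 12.1 and 5.29 CPM in Non-NE libraries (log2 difference 5.29 ± 0.44 SE, edgeR adjusted p = 0.0014). Cxadr, a junction protein that serves as a virus receptor, had 829.6 and 798 CPM at day 21, against 57.8, 63.6 and 35.2 CPM in Non-NE libraries (log2 difference 3.96 ± 0.30 SE, edgeR adjusted p = 0.00099). The 3 were higher in each day 21 library than in each Non-NE library, which the rule of choice required. Rab11fip1, Igfbp2, Rbpms, Pim1, Nebl and S100a1 were also among the 10 furthest above Non-NE, with log2 differences of 4.09 to 4.95. Vim, Fn1 and Ltbp1 were among the first falls by size. Lrp1, an endocytic receptor, had 10.9 and 12.1 CPM at day 21, against 429, 557 and 811 CPM in Non-NE libraries (log2 difference -5.70 ± 0.39 SE, edgeR adjusted p = 0.00082). Pdgfrb, Tgm2, Pmepa1, Anxa8 and Ntn1 were others of these 10, with log2 differences of -4.85 to -4.30. Leaving out either day 21 library ended the calls of Igfbp2, Pdgfrb, Tgm2, Pmepa1 and Anxa8 (adjusted p between 0.073 and 0.15). Igfbp2 was no longer called without Non-NE replicate 2 (adjusted p = 0.078).

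**Figure D4:**
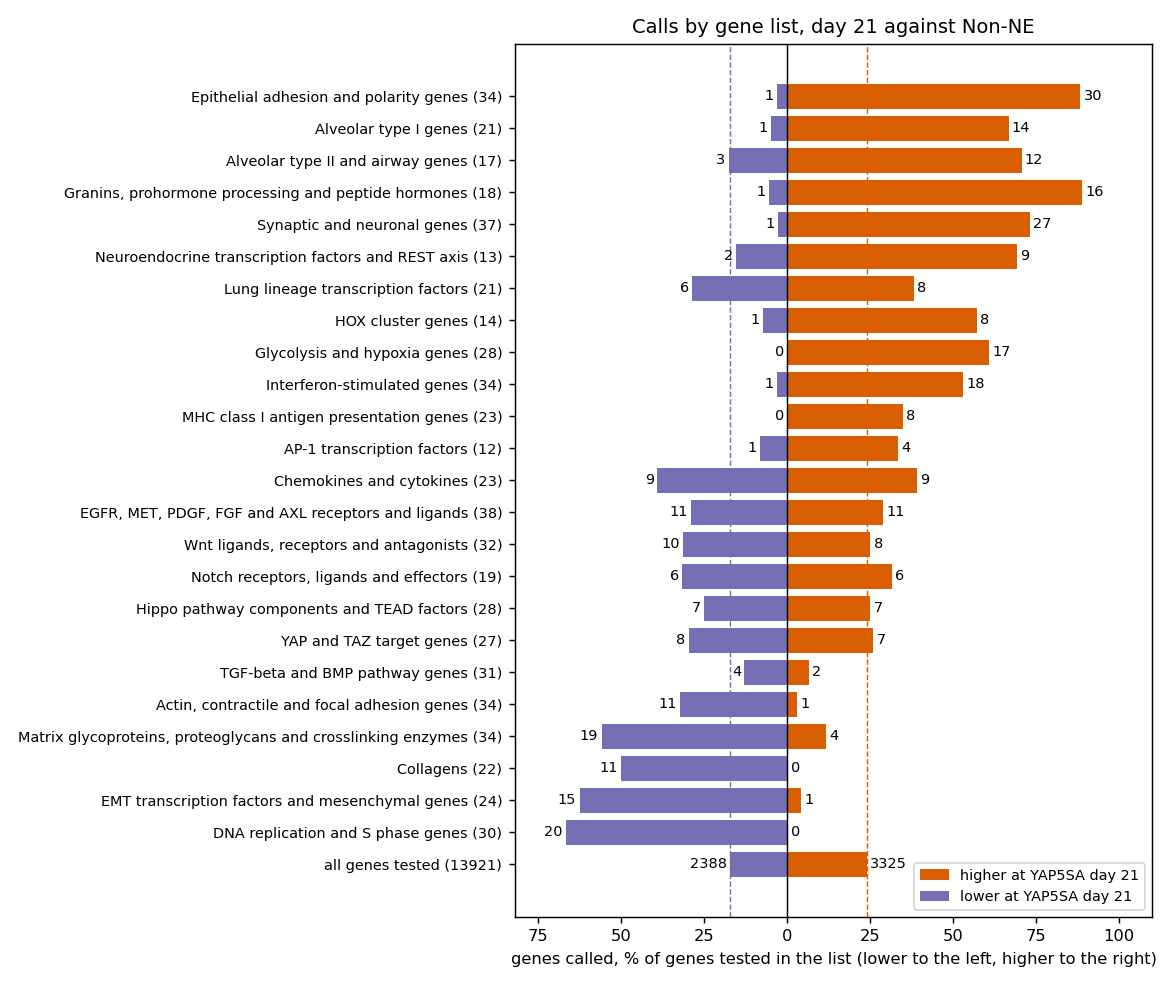
Number of genes called higher (right of 0) and lower (left of 0) at YAP5SA day 21 than in Non-NE, as a percentage of the tested genes of each list (counts beside the bars), for 24 lists and for all genes tested (bottom). Dashed lines mark the 23.9% higher and 17.2% lower of all genes tested. Epithelial, granin and synaptic lists extend far to the right, the EMT and replication lists to the left, and the YAP target list to both sides.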

How the data were processed

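Poly(A) RNA of cultured mouse cells was sequenced in 14 libraries, of which 2 (YAP5SA day 21) and 3 (Non-NE) enter the comparison. The authors deposited a table of raw counts per gene symbol, 32926 symbols in all, after alignment with STAR 2.4.2 (build mm10) and counting with featureCounts, per the submitters' processing notes. The annotation and the strand setting are not given in the sources used here. Of the symbols, 30152 occurred in GENCODE M21, used for coordinates and overlaps, 25 had been turned into dates and 10220 had no count in any library.

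Counts were tested in R 4.3.3 by edgeR 4.0.16 (glmQLFit and glmQLFTest, robust), with filterByExpr (minimum count 10), TMM factors from all 14 libraries and a fit of the 5 libraries by group. The p-values were adjusted by the Benjamini-Hochberg method over all 13921 genes tested, and a gene was called at an adjusted p under 0.05. Log2 differences are day 21 minus Non-NE, and their SE is the size of the difference over the square root of F. A group at 0 was set to a floor of 3 counts over the group, 0.144 CPM at day 21 and 0.126 CPM in Non-NE, and 1 to 3 counts gave a ratio with an exact 95% counting interval. The fit was tested on simulated data. With the own spread of each group and 200 genes changed, it recovered 0 of 57 changes of 2-fold and 12 of 50 of 4-fold. With 5000 genes changed it recovered 327 of 1210 and 910 of 1235. With the day 21 spread in both groups and 200 genes changed it recovered 53 of 59 and 56 of 56. False calls were 3, 43 and 9 in these settings. DESeq2 1.42.0 and limma 3.58.1 served for alternatives, together with other scalings, filters, sets of libraries, a replicate block, libraries left out and the day 21 libraries summed, which was chosen after seeing the data.

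The comparison, the gene lists and the motifs were chosen with earlier results of these data known, so list counts are descriptions and no list was tested. Genes are named if they belong to a list, or by size. By size, the 20 largest differences in each direction were taken where the higher group averaged 10 CPM or more. The 10 largest in each direction were taken where both groups did. In each case the genes were called, without overlap and with no clone name. Genes of a list were picked for print within it, and some genes and 1 allele are not reported here. Promoters are the 250 bases before the start in RefSeq (GRCm38.p6). Libraries of a group differed from each other by more than sampling noise.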

Additional observations from a re-analysis of the deposited data

How the results depend on the processing

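Of the 170 called genes named here with values or calls, all kept their call with DESeq2 size factors, the DESeq2 test, TMM factors from the 5 libraries, a filter of at least 1 CPM in 2 libraries, limma-voom with a quality weight per group, and a fit of all libraries but NE replicate 2. Between 166 and 169 kept it with all 14 libraries in the fit, library totals only, limma-voom and no count filter, and 151 against a 2-fold threshold. That threshold left 2917 calls, 2125 higher and 792 lower. Leaving out 1 of the 5 libraries gave 1101 to 7384 calls in all, 815 to 4035 higher and 286 to 3349 lower, with both low ends from leaving out a day 21 library, and 119 to 168 of the named calls held. Summing the day 21 libraries to 1 sample gave 1196 calls, 888 higher and 308 lower, and 122 of the named calls held. The replicate block gave 3851 calls, 2365 higher and 1486 lower, and 159 of the named calls held. The same-numbered libraries were not paired by the labels, and their deviations from the group means correlated at 0.0603 for number 1 and 0.0152 for number 2, so the numbers were not read as pairs. With only 2 numbers shared, no order of the pairs could be tested. For genes not called, the sign of the log2 difference turned in some settings. Ajuba ran from -0.046 to 0.58 with 1 library left out, where its sign turned without Non-NE replicate 3. B2m was at -0.040 with the replicate block, and from -0.14 to 0.32 with 1 library left out, where its sign turned without Non-NE replicate 3 and day 21 replicate 1. Cdh2 ran from -0.38 to 0.070 with 1 library left out, where its sign turned without Non-NE replicate 2. Ctgf was at 0.21 with limma-voom and 0.21 with quality weights, and from -1.49 to 1.51 with 1 library left out, where its sign turned without Non-NE replicate 2. Jun was at 0.011 with DESeq2 size factors, 0.15 with library totals, 0.069 with limma-voom, 0.068 with quality weights and 0.054 with the replicate block, and from -0.29 to 0.40 with 1 library left out, where its sign turned without Non-NE replicate 2 and day 21 replicate 1. Lats1 was at 0.065 with library totals, and from -0.20 to 0.019 with 1 library left out, where its sign turned without Non-NE replicate 1. Mki67 ran from -0.44 to 0.27 with 1 library left out, where its sign turned without Non-NE replicate 1. Ncam1 was at 0.12 with the replicate block, and from -1.31 to -0.40 with 1 library left out. Tead3 was at 0.12 with library totals, 0.073 with limma-voom and 0.072 with quality weights, and from -0.32 to 0.37 with 1 library left out, where its sign turned without Non-NE replicate 2 and day 21 replicate 1. Yap1 ran from -0.18 to 0.26 with 1 library left out, where its sign turned without Non-NE replicate 1. Of these values only that of Ctgf at 1.51 passed the adjusted threshold. The causes of these turns were not tested. Calls rest on 2 libraries that may be technical repeats and on 3 Non-NE libraries that are unlike each other, so that a gene not called may still differ, and state, line and library set cannot be told apart.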

Other observations

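Some keratins and imprinted genes also separated the groups. Krt18, a keratin of simple epithelia, had 859 and 928 CPM at day 21, against 0, 2.56 and 1.90 CPM in Non-NE libraries (log2 difference 9.14 ± 0.91 SE, edgeR adjusted p = 0.0022). Krt4, a keratin of stratified epithelia, had 69.9 and 71.9 CPM at day 21, against 0, 0 and 0.106 CPM in Non-NE libraries, a pooled level 1693-fold higher at day 21 (95% counting interval 303 to 66919, 1 count in the lower group, edgeR adjusted p = 0.00049). Krt14, a basal cell keratin, had 48.8 and 45.4 CPM at day 21, against 8.51, 5.004 and 7.62 CPM in Non-NE libraries (log2 difference 2.74 ± 0.29 SE, edgeR adjusted p = 0.0025). All 3 were higher at day 21 without overlap. Of 14 keratins and other intermediate filaments tested 8 were higher and 3 lower, a called share of 78.6% beside 41.0% of all genes. In the intermediate filament genes 4 higher and 1 lower calls remained without day 21 replicate 1, and 4 and 1 without replicate 2, while 8 higher and 5 lower calls were made without Non-NE replicate 1. Among imprinted genes, Peg3, a zinc finger protein, had 261 and 245 CPM at day 21, against 0, 0.488 and 0.212 CPM in Non-NE libraries (log2 difference 9.91 ± 0.52 SE, edgeR adjusted p = 0.00049). Plagl1, another zinc finger protein, had 161 and 157 CPM at day 21, against 0.964, 0.854 and 1.16 CPM in Non-NE libraries (log2 difference 7.29 ± 0.21 SE, edgeR adjusted p = 0.00033). Both were at a few CPM or less in Non-NE libraries. Grb10, an adaptor that restrains growth factor receptors, had 38.7 and 42.3 CPM at day 21, against 1098, 549 and 626 CPM in Non-NE libraries (log2 difference -4.23 ± 0.41 SE, edgeR adjusted p = 0.0021) and was lower at day 21. Of 19 imprinted genes and noncoding RNAs tested 8 were higher, 2 lower and 9 not called, a called share of 52.6% beside 41.0% of all genes. Leaving out day 21 replicate 1 kept 4 higher and 1 lower calls in the imprinted genes, and leaving out replicate 2 kept 4 and 1, while 10 higher and 1 lower calls were made without Non-NE replicate 3. Among S100 proteins, annexins and galectins, S100a14 had 556 and 628 CPM at day 21, against 0, 0 and 0.423 CPM in Non-NE libraries (log2 difference 11.69 ± 0.71 SE, edgeR adjusted p = 0.00060). S100a6 had 81.3 and 67.7 CPM at day 21, against 635, 638 and 1079 CPM in Non-NE libraries (log2 difference -3.40 ± 0.35 SE, edgeR adjusted p = 0.0023). S100a14 was higher and S100a6 lower, and of 22 genes tested 4 were higher and 5 lower, a called share of 40.9% beside 41.0% of all genes. The calls kept in the S100, annexin and galectin list were 3 higher and 2 lower without day 21 replicate 1, and 3 and 2 without replicate 2, while 8 higher and 7 lower calls were made without Non-NE replicate 1.

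Genes of the stress response were partly higher. Trib3, a pseudokinase induced by amino acid and protein stress, had 239 and 293 CPM at day 21, against 60.2, 21.97 and 41.5 CPM in Non-NE libraries (log2 difference 2.69 ± 0.42 SE, edgeR adjusted p = 0.0071). Dnajb9, a chaperone of the endoplasmic reticulum, had 132 and 123 CPM at day 21, against 19.8, 22.2 and 21.5 CPM in Non-NE libraries (log2 difference 2.59 ± 0.16 SE, edgeR adjusted p = 0.00060). Ddit3, the stress factor CHOP, had 151 and 142 CPM at day 21, against 45.8, 46.9 and 61.6 CPM in Non-NE libraries (log2 difference 1.51 ± 0.19 SE, edgeR adjusted p = 0.0039). None of the 3 overlapped between the groups, and of 21 stress response genes tested 5 were higher and 1 lower, a called share under that of all genes. Of the stress response genes, 2 were still called higher and 0 lower without day 21 replicate 1, and 2 and 0 without replicate 2, while 8 higher and 3 lower calls were made without Non-NE replicate 1 and 5 and 0 without replicate 3. Among cell cycle regulators, Cdkn1c, the inhibitor p57, had 21.4 and 22.6 CPM at day 21, against 0, 0.610 and 0.423 CPM in Non-NE libraries (log2 difference 5.86 ± 0.79 SE, edgeR adjusted p = 0.0047). Cdk4, a G1 kinase, had 299 and 329 CPM at day 21, against 688, 706 and 633 CPM in Non-NE libraries (log2 difference -1.11 ± 0.16 SE, edgeR adjusted p = 0.0058). Of 30 genes of the RB, cyclin D and p53 axis tested 5 were higher and 6 lower, a called share of 36.7% beside 41.0% of all genes. For the cell cycle regulators, the calls left were 1 higher and 1 lower without day 21 replicate 1 and 1 and 1 without replicate 2, while 8 higher and 6 lower calls were made without Non-NE replicate 1. Of 25 sterol and fatty acid synthesis genes tested 6 were higher and 2 lower, a called share of 32.0% beside 41.0% of all genes. Among the sterol and fatty acid genes, 0 higher and 0 lower calls held without day 21 replicate 1, and 0 and 0 held without replicate 2, while 11 higher and 2 lower calls were made without Non-NE replicate 1. With a single day 21 library, the calls of Trib3, Ddit3, Cdkn1c and Cdk4 were lost whichever was left out (adjusted p between 0.052 and 0.095), except that Trib3 kept its call without replicate 1 and Ddit3 kept its call without replicate 2.

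Several genes split the Non-NE libraries among themselves. Col3a1, Acta2, Sfrp2 and Ctgf are examples already given. Dcn, decorin, had 0.286 and 0.194 CPM at day 21, against 39.5, 0.976 and 30.9 CPM in Non-NE libraries (log2 difference -6.55 ± 1.83 SE, edgeR adjusted p = 0.038). Non-NE replicate 2 was there the lowest of the 3. S100a4 had 1.34 and 2.04 CPM at day 21, against 182, 37.5 and 143 CPM in Non-NE libraries (log2 difference -6.15 ± 0.91 SE, edgeR adjusted p = 0.0059), again with replicate 2 the lowest of Non-NE. Dcn and S100a4 lost their calls with either day 21 library left out (adjusted p between 0.059 and 0.20). Dcn did not pass the count filter without Non-NE replicate 1 or 3.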
